A study of Mus musculus with 12 samples.

Results

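The 9 genes described here encode transcription factors that set and modify the macrophage lineage: the C/EBP family members Cebpa, Cebpb and Cebpd, the bZIP factor Maf, the ETS factor Spi1 (PU.1), Runx1, the microphthalmia (MiT) family members Mitf and Tfec, and Bhlhe40. They were chosen by name, for their role in the lineage, but with earlier results of these data known. They are 9 of the 48526 genes in the table. All 9 passed the count filter in force for the tests. Bone marrow-derived macrophages (BMDMs), grown from whole marrow of 3 female C57Bl/6J mice with macrophage colony-stimulating factor and used on day 7, received medium alone, Wnt3a at 100 ng/mL, IL-4 at 100 pg/mL, or the 2 combined, each for 16 hr. Single-read RNA sequencing of the 12 cultures asked how a Wnt ligand changes the response of macrophages to IL-4. Age of the mice is not given in the labels, and no group carries an allele or transgene.

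PU.1 and the C/EBP factors act together on myeloid enhancers, where PU.1 opens chromatin and C/EBP-α drives commitment of progenitors, while C/EBP-β and C/EBP-δ are better known for inflammatory and acute-phase genes. MAF helps to hold mature macrophages out of the cell cycle and drives genes of resident-type cells, and RUNX1 is required for blood formation and for the first expression of Spi1. MITF and TFEC belong with TFEB and TFE3 to a family that binds E-boxes of lysosomal and osteoclast genes, and BHLHE40 is a repressor linked to proliferation and cytokine control in macrophages.

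The columns labelled Wnt3a and Wnt3a+IL-4 do not hold separate counts. In all 3 mice, 0 of 48526 genes had a Wnt3a count below the Wnt3a+IL-4 count of the same mouse or above 2 times that count. The 9 factors were therefore compared in 4 sets of 3 libraries: untreated, IL-4, the difference (the Wnt3a column less the Wnt3a+IL-4 column) and the remainder (the Wnt3a+IL-4 column less the difference). Both the difference and the remainder stem from cells that received Wnt3a. Which of them also received IL-4 is not in the labels, and the values were not used to settle it. These 12 libraries held between 13342492 and 17453377 counts. All 8 macrophage markers were detected in every set, with a summed level of 43979 to 68614 CPM (read counts scaled to library size by TMM, edgeR's trimmed mean of M-values), while the lymphocyte genes Cd3e and Nkg7 had 3 counts or fewer in every library. Most of the macrophage sum was Lyz2, with set means from 37888 to 52985 CPM. With RNA from whole cultures, fewer cells expressing a gene and less RNA per cell cannot be told apart.

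Cebpa and Maf were lower, and Tfec higher, than in untreated cells in both Wnt3a-derived sets, while Cebpd and Bhlhe40 set the difference and the remainder apart from each other. Spi1 and Runx1 passed the test in none of the comparisons. The test was edgeR's quasi-likelihood test over 12421 genes with a Benjamini-Hochberg adjusted p under 0.05, and it called 3 of the 9 factors between IL-4 and untreated cells, where it called 3.40% of all genes tested. It called 4 factors between the difference and untreated cells (23.2% of all genes) and 5 between the remainder and untreated cells (25.3% of all genes). Between the remainder and the difference it called 2 factors (5.25% of all genes), and between the remainder and IL-4 it called 4 (20.3% of all genes). The 3 comparisons with untreated cells share the same untreated libraries.

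**Figure D1:**
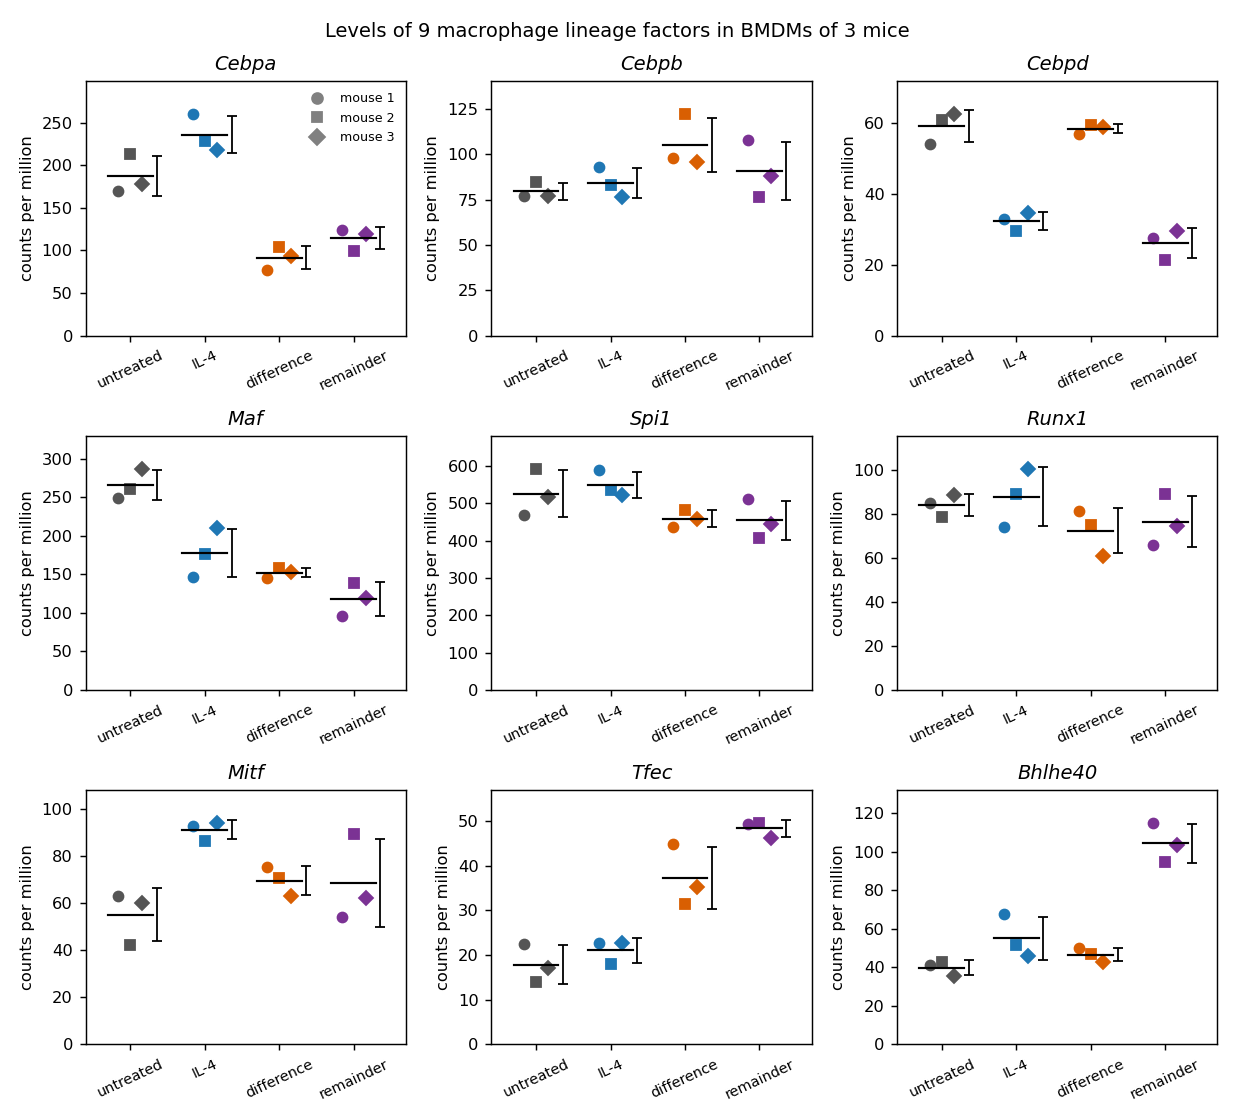
Each panel plots the level of 1 factor in CPM (linear axis from 0) in untreated, IL-4, difference and remainder libraries, with a symbol for each mouse, a line at the mean and a bar for the SD (n = 3). Cebpd falls from a mean of 59.2 in untreated cells to 32.3 with IL-4 and 26.1 in the remainder, while the difference stays at 58.5, and Bhlhe40 stands at 104.4 in the remainder against 39.7 to 55.1 in the other sets.

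Levels of different genes were compared per length, as CPM per kb of exon. Spi1 led in every set, with a mean from 168 to 204 CPM per kb, above 98.2% to 98.7% of the 12392 tested genes with a known length. In untreated cells Cebpa followed at 70.9 ± 8.90 CPM per kb (SD, n = 3), then Cebpb at 52.8 ± 3.13, Maf at 32.2 ± 2.35 and Cebpd at 15.8 ± 1.21, and the ranges of these neighbours over the 3 mice did not overlap. Mitf at 8.89 ± 1.81 CPM per kb and Bhlhe40 at 8.44 ± 0.825 did overlap, and Runx1 and Tfec were lowest at 6.98 ± 0.427 and 3.19 ± 0.770. With IL-4 the first 4 kept this order of levels per kb, but Cebpd dropped behind Mitf and Bhlhe40 to overlap with Runx1. In both Wnt3a-derived sets Cebpb, not Cebpa, stood next to Spi1. In the remainder, Bhlhe40 came 4th at 22.2 ± 2.15 CPM per kb, above Maf, Mitf and Tfec, of which Maf overlapped with Mitf and Mitf with Tfec.

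Cebpa lies on chromosome 7 (mm10, 35119293 to 35121928, plus strand) as 1 exon block of 2636 bases. Its level in untreated cells was 169.6, 214 and 177 CPM in mouse 1, 2 and 3, against 77.04, 104 and 93.3 CPM in the difference and 124, 99.7 and 119 CPM in the remainder. Every Wnt3a-derived library was below every untreated library. The fitted log2 fold change was -1.03 (SE 0.12, adjusted p = 3.45e-05) in the difference and -0.71 (SE 0.12, adjusted p = 0.000688) in the remainder. IL-4 alone gave 259.9, 228 and 218 CPM, all above the untreated range, but the log2 fold change of 0.33 did not pass the test (95% interval 0.07 to 0.60, adjusted p = 0.195). Between the remainder and IL-4 the log2 fold change of Cebpa was -1.04 (SE 0.12, adjusted p = 3.12e-05). The remainder and the difference did not pass the test against each other (log2 fold change 0.32, 95% interval 0.05 to 0.59, adjusted p = 0.169), but did without mouse 2 (0.53, adjusted p = 0.0156) and without the remainder of mouse 2 (0.42, adjusted p = 0.0461). Gm45091, which covers 1.93% of the exon bases on the other strand, averaged 0.508 CPM or less in every set.

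Cebpb, the factor of emergency granulopoiesis and of inflammatory macrophage genes, lies on chromosome 2 (mm10, 167688915 to 167690418, plus strand). It had 76.7, 84.9 and 76.8 CPM in untreated cells and 97.6, 122 and 95.5 CPM in the difference, with no overlap. The log2 fold change of 0.40 (SE 0.13) passed the test narrowly (adjusted p = 0.0326). The call was lost without mouse 2, without mouse 3, without the untreated library of mouse 1 or of mouse 3, and without the difference of mouse 2, with log2 fold changes of 0.28 to 0.45 and adjusted p from 0.0877 to 0.163, and with total counts as the scaling (0.31, adjusted p = 0.0561). The remainder, at 107.8, 76.4 and 88.2 CPM, overlapped with untreated cells and did not pass (log2 fold change 0.19, 95% interval -0.08 to 0.46, adjusted p = 0.291), though it did without mouse 2 (0.36, adjusted p = 0.0371). IL-4 left Cebpb between 76.2 and 92.7 CPM, for a log2 fold change of 0.08 (95% interval -0.19 to 0.35, adjusted p = 0.848). Tmem189 lies over 20.74% of the Cebpb exon bases on the other strand and passed the test in none of the comparisons. As the strand setting of the counting is not given, reads of this stretch cannot be assigned between Cebpb and Tmem189.

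Taken per length, the balance between Cebpa and Cebpb was inverted in the Wnt3a-derived sets. In CPM, Cebpb was above Cebpa in the difference (means of 105 and 91.5) but below it in the remainder (90.8 and 114). Per length, Cebpb stood at 0.697 to 0.793 of the Cebpa level in untreated cells of the 3 mice and at 0.612 to 0.638 with IL-4. In the difference it stood at 1.79 to 2.22 times the Cebpa level, and in the remainder at 1.30 to 1.52 times. All 6 untreated and IL-4 ratios were below 1 and all 6 Wnt3a-derived ratios above it. The Cebpb length used includes the 20.74% of exon bases that Tmem189 overlaps. As the strand setting is not given, the side of 1 on which a ratio lies depends on this length. Summed over Cebpa, Cebpb and Cebpd, the level ran from 94.3 to 169 CPM per kb, and Cebpa made up 49.6% to 52.7% of that sum in untreated cells and 26.7% to 30.9% in the difference.

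**Figure D2:**
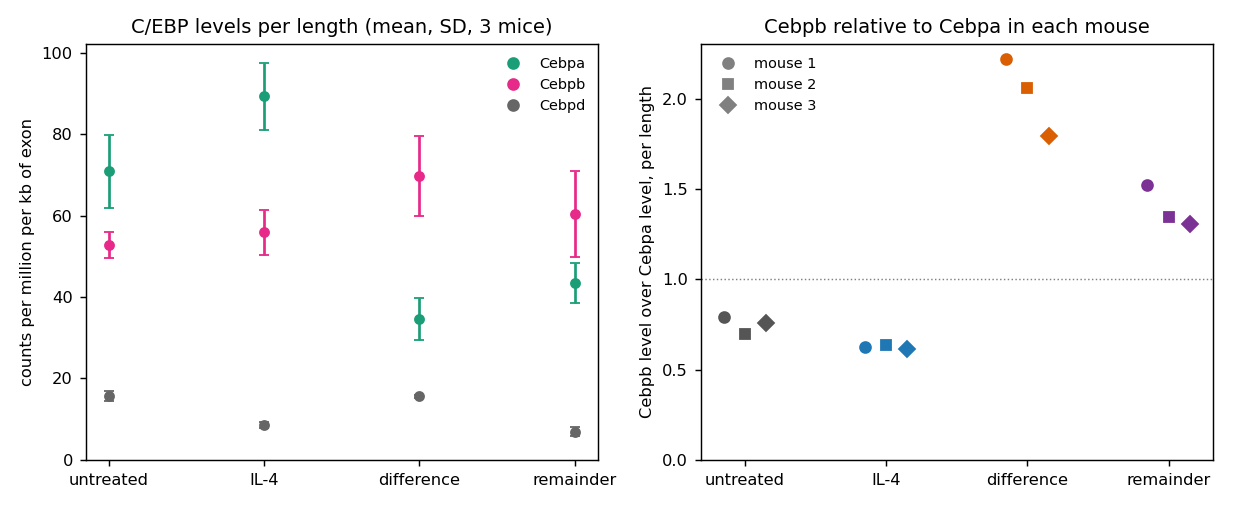
The left panel plots the mean level of Cebpa, Cebpb and Cebpd in CPM per kb of exon with the SD over 3 mice. The right panel plots the Cebpb level divided by the Cebpa level, both per kb of exon, in each mouse. Both panels have linear axes from 0. Ratios lie from 0.612 to 0.793 in untreated and IL-4 libraries and from 1.30 to 2.22 in the difference and remainder, on opposite sides of the dotted line at 1.

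Cebpd, an immediate responder to cytokines in many cell types, lies on chromosome 16 (mm10, 15887286 to 15891031, plus strand). It had 54.0, 61.0 and 62.5 CPM in untreated cells and 33.0, 29.5 and 34.5 CPM with IL-4, a log2 fold change of -0.87 (SE 0.11, adjusted p = 0.000355). The difference, at 56.9, 59.5 and 59.0 CPM, lay within the untreated range, for a log2 fold change of -0.02 (95% interval -0.25 to 0.22, adjusted p = 0.934). The remainder, at 27.5, 21.4 and 29.4 CPM, lay below every untreated and every difference library. Its log2 fold change was -1.18 (SE 0.11, adjusted p = 3.11e-06) against untreated cells and -1.16 (SE 0.11, adjusted p = 3.42e-05) against the difference. Remainder and IL-4 did not pass the test against each other (-0.31, 95% interval -0.55 to -0.06, adjusted p = 0.0725), though they did without the remainder of mouse 3 (-0.40, adjusted p = 0.0411) and with total counts as the scaling (-0.36, adjusted p = 0.0254). With the columns as labelled the direction turned, and Cebpd passed as higher in the Wnt3a+IL-4 column than with IL-4 (0.38, adjusted p = 0.00206). Spidr overlaps 15% of the Cebpd exon bases on the other strand. Spidr rose in the difference (log2 fold change 0.54, adjusted p = 0.00123, from 19.9 to 28.8 CPM) and was lower in the remainder than in the difference (-0.58, adjusted p = 0.00327). The strand setting of the counting is not given in the sources used here, so reads of the overlapped stretch cannot be assigned between Cebpd and Spidr.

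Other bZIP members of the family were counted from a list of 3. Ddit3, the stress-induced C/EBP-homologous protein, rose from 26.6 CPM in untreated cells to 41.2 CPM in the difference (log2 fold change 0.63, adjusted p = 0.00151) and 53.3 CPM in the remainder (1.00, adjusted p = 2.44e-05). Cebpe and Cebpg passed in neither of these comparisons, and 0 of the 3 passed between IL-4 and untreated cells, or between remainder and difference. Between remainder and IL-4, Ddit3 was higher (0.95, adjusted p = 5.20e-05) and Cebpg lower (-0.34, adjusted p = 0.0499).

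Maf, which favours Il10 and complement C1q genes in macrophages, lies on chromosome 8 (mm10, 115682942 to 115707794, minus strand). Its level was 249, 260.1 and 287 CPM in untreated cells, 147, 176 and 209.8 CPM with IL-4, 146, 158 and 153 CPM in the difference, and 96.0, 139 and 119 CPM in the remainder. All 9 libraries of the treated sets were below all 3 untreated libraries. The log2 fold changes against untreated cells were -0.58 (SE 0.13, adjusted p = 0.0263) with IL-4, -0.80 (SE 0.13, adjusted p = 0.000553) in the difference and -1.17 (SE 0.14, adjusted p = 1.84e-05) in the remainder. The IL-4 call was lost without mouse 2, without mouse 3, without the untreated library of mouse 3 and without the IL-4 library of mouse 1 or mouse 2, with log2 fold changes of -0.46 to -0.67 and adjusted p from 0.0710 to 0.196. Maf was lower in the remainder than with IL-4 (-0.59, SE 0.13, adjusted p = 0.00585), but not without mouse 3 (-0.44, adjusted p = 0.179). It was lower in the remainder than in the difference in all 3 mice without passing the test (-0.37, 95% interval -0.65 to -0.08, adjusted p = 0.147), but passed without the remainder of mouse 2 (-0.49, adjusted p = 0.0413) and when all genes with at least 1 count were fitted (-0.37, adjusted p = 0.00454). Gm15655, over 5.34% of the Maf exon bases on the other strand, had no counts, and 0.27% of the 50-base stretches of Maf occur in transcripts of other genes.

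Of the 3 small MAF proteins, which pair with other bZIP factors and lack a transactivation domain, the genes of 2 fell in the difference. Mafg fell from 199 to 140.1 CPM (log2 fold change -0.51, adjusted p = 0.000300) and Mafk from 43.6 to 35.4 CPM (-0.30, adjusted p = 0.0449), while Maff was at 2.81 CPM in untreated cells and 2.71 CPM in the difference (-0.04, adjusted p = 0.923). In the remainder 0 of the 3 passed against untreated cells, and Mafg was higher than in the difference (0.32, adjusted p = 0.0280). None of the 3 passed between IL-4 and untreated cells (0 called) or between remainder and IL-4 (0 called).

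A list of 11 genes that MAF is known to drive gave 9 that were tested, and Timd4 and Lyve1 had 3 counts or fewer in every library. This list and the other target lists were chosen with earlier results of these data known, so their medians are no test of the factors. In the difference 6 of 9 fell and 0 rose, with a median log2 fold change of -0.66 against -0.01 over all genes. Cd163, the haemoglobin scavenger receptor, fell from 9.87 to 2.14 CPM (log2 fold change -2.21, adjusted p = 5.14e-06), as did Il10 (-1.43, adjusted p = 0.00396) and Gas6, a ligand for efferocytosis receptors (-0.87, adjusted p = 0.000424). The other members that fell were Mrc1 (-0.83), C1qb (-0.46) and C1qc (-0.37). In the remainder 4 of 9 fell and 1 rose, with a median of -0.21 against -0.02 over all genes. Cd163 (-3.17, adjusted p = 3.16e-07), Il10 (-1.98, adjusted p = 0.000478), F13a1 (-1.67, adjusted p = 0.000249) and Gas6 (-1.32, adjusted p = 9.07e-06) fell there, while Mrc1, the mannose receptor and a classic IL-4 marker, rose from 50.4 to 142 CPM (1.4998, adjusted p = 5.93e-05). With IL-4 alone 1 of 9 passed, and that was Mrc1 at 222 CPM (2.14, adjusted p = 2.61e-05). Between remainder and difference Mrc1 was higher (2.33) and F13a1 lower (-1.88), and between remainder and IL-4 6 of 9 were lower, led by Cd163 (-3.30), Il10 (-1.82) and F13a1 (-0.92).

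Spi1, the most abundant of the factors, lies on chromosome 2 (mm10, 91082390 to 91115756, plus strand) and shares no exon base with another gene. It had 468, 592 and 517 CPM in untreated cells, 589, 536 and 522 CPM with IL-4, 436, 481 and 458 CPM in the difference, and 511, 407 and 444 CPM in the remainder. The untreated range overlapped with that of every other set, while the IL-4 libraries all lay above those of the difference and remainder. The log2 fold change was 0.06 (95% interval -0.16 to 0.28) with IL-4, -0.20 (-0.42 to 0.02) in the difference and -0.21 (-0.43 to 0.01) in the remainder, with adjusted p of 0.854, 0.183 and 0.149. Scaling to total counts alone shifted the median of all genes by -0.10 and -0.13 in the last 2 comparisons, and Spi1 then passed as lower in both (log2 fold changes -0.28 and -0.32, adjusted p = 0.0171 and 0.00880). In the remainder it also passed without mouse 1 (-0.38, adjusted p = 0.0136). Between remainder and IL-4 the log2 fold change was -0.27 (95% interval -0.49 to -0.05, adjusted p = 0.0752), and Spi1 passed there with total counts (-0.33, adjusted p = 0.00894), without mouse 1 (-0.32, adjusted p = 0.0361) and without the remainder of mouse 1 (-0.35, adjusted p = 0.0321). Between remainder and difference it was -0.01 (-0.23 to 0.21, adjusted p = 0.960).

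Of 7 other ETS genes that were listed, 4 passed in the difference (23.2% of all genes) and 5 in the remainder (25.3% of all genes). Spib, the lymphoid and dendritic relative of PU.1, rose from 2, 3 and 9 counts in untreated cells to 57, 80 and 77 counts in the difference (log2 fold change 3.98, adjusted p = 7.05e-06) and 78, 116 and 69 counts in the remainder (4.26, adjusted p = 2.85e-06). With 8, 8 and 5 counts with IL-4, Spib met the count filter only through the Wnt3a-derived libraries, so its rise is partly set by the filter. Spic, the factor of red pulp macrophages, rose from 1.76 to 5.69 CPM (1.68, adjusted p = 9.85e-05) and 4.96 CPM (1.48, adjusted p = 0.000254). Ets1 fell from 15.4 CPM to 1.52 CPM in the difference (-3.35, adjusted p = 2.11e-07) and 2.13 CPM in the remainder (-2.85, adjusted p = 4.13e-07), and Ets2 fell in both (-0.36, adjusted p = 0.0103, and -0.41, adjusted p = 0.00393). Fli1 fell in the remainder (-0.49, adjusted p = 0.00216). Between IL-4 and untreated cells, and between remainder and difference, 0 of the 7 passed. Between remainder and IL-4, Spib (3.58) and Spic (1.39) were higher and Ets1 (-3.39) and Fli1 (-0.34) lower.

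Runx1 lies on chromosome 16 (mm10, 92601466 to 92826149, minus strand). It had 84.8, 78.4 and 88.6 CPM in untreated cells, 74.0, 88.8 and 100.4 CPM with IL-4, 81.2, 74.7 and 61.0 CPM in the difference, and 65.8, 88.8 and 74.6 CPM in the remainder. All of these ranges overlapped. The log2 fold changes against untreated cells were 0.06 (95% interval -0.22 to 0.35), -0.21 (-0.50 to 0.07) and -0.14 (-0.42 to 0.15) in that order, with adjusted p of 0.892, 0.274 and 0.493. The value was 0.08 between remainder and difference (-0.21 to 0.36, adjusted p = 0.806) and -0.20 between remainder and IL-4 (-0.48 to 0.09, adjusted p = 0.336). Of the partners and relatives Runx2, Runx3 and Cbfb, 0 of 3 passed against untreated cells in any set or between remainder and difference. Between remainder and IL-4, Runx3 was higher (0.47, adjusted p = 0.0383) and Cbfb, the shared partner subunit, lower (-0.38, adjusted p = 0.0423).

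Mitf lies on chromosome 6 (mm10, 97807052 to 98021349, plus strand) and starts from several promoters. It had 63.0, 42.3 and 59.9 CPM in untreated cells against 92.8, 86.5 and 93.9 CPM with IL-4, with no overlap, for a log2 fold change of 0.72 (SE 0.17, adjusted p = 0.0290). With the mouse as a block the adjusted p was 0.0604, and with total counts as the scaling 0.0885. The call was also lost without mouse 1 or mouse 3, without the untreated library of mouse 2 or mouse 3 and without the IL-4 library of any of the 3 mice, with log2 fold changes of 0.55 to 0.82 and adjusted p from 0.0511 to 0.353. The difference had 75.2, 70.7 and 62.9 CPM (log2 fold change 0.34, 95% interval -0.03 to 0.70, adjusted p = 0.172). The remainder had 54.0, 89.4 and 62.2 CPM (0.31, 95% interval -0.05 to 0.68, adjusted p = 0.195), and mouse 2 alone was above the untreated range there. Without mouse 2 the value of the remainder was -0.07. Remainder and difference gave -0.02 (95% interval -0.38 to 0.34, adjusted p = 0.958). Remainder and IL-4 gave -0.41 (95% interval -0.77 to -0.05, adjusted p = 0.105), which passed without mouse 2 (-0.66, adjusted p = 0.00149) and without the remainder of mouse 2 (-0.63, adjusted p = 0.00842).

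Tfec, the MiT member most restricted to macrophages, lies on chromosome 6 (mm10, 16833373 to 16898441, minus strand). It had 22.5, 14.0 and 17.1 CPM in untreated cells and 22.7, 17.9 and 22.7 CPM with IL-4, which overlapped (log2 fold change 0.23, 95% interval -0.13 to 0.60, adjusted p = 0.598). The difference had 44.9, 31.4 and 35.3 CPM and the remainder 49.3, 49.5 and 46.3 CPM, all above every untreated and IL-4 library. Log2 fold changes against untreated cells were 1.06 (SE 0.17, adjusted p = 0.000375) and 1.43 (SE 0.17, adjusted p = 2.04e-05), and the remainder was above IL-4 by 1.197 (SE 0.17, adjusted p = 0.000121). The remainder exceeded the difference in 3 of 3 mice without passing (0.38, 95% interval 0.03 to 0.72, adjusted p = 0.222). Tfec moved from above 41.6% of the genes with a length in untreated cells to above 58.4% in the difference and 64.8% in the remainder.

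The region before a start site was at hand for 5 of the 9 factors, in 8 entries of 250 bases from the RefSeq annotation of GRCm38.p6, the assembly behind mm10. Both strands were searched for STAT (TTCNNNGAA), C/EBP (TTNNGCAA), TCF/LEF (CTTTGAT and CTTTGAA), PU.1 (GAGGAA), RUNX (TGTGGT), E-box (CACGTG and CATGTG) and cAMP response element (CRE, TGACGT) letters. The 4 windows below include those of Cebpa and Tfec, the factors that moved in both Wnt3a-derived sets and have an entry. The others are the first and the last of the 3 windows of Mitf, which are those of Mitf with a match. Mitf passed against untreated cells in neither Wnt3a-derived set. Of the windows not printed, the middle one of Mitf and that of Cebpb held no match. Those of Runx1 held a PU.1 match (23.3% of all windows) and an E-box match (17.6%). Capitals mark every match.
Cebpa, chr7:35119043-35119292, plus strand: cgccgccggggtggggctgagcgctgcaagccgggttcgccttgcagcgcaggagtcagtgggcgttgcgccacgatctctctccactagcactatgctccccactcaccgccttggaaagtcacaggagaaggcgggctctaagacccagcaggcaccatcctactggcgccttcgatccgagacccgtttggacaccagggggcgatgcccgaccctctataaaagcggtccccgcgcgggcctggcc
Tfec, chr6:16898442-16898691, minus strand: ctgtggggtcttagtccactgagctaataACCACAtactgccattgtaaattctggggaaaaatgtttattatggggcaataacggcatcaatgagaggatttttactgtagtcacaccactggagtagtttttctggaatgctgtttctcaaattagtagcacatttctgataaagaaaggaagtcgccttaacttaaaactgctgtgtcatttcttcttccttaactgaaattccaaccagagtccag
Mitf first window, chr6:97806808-97807057, plus strand: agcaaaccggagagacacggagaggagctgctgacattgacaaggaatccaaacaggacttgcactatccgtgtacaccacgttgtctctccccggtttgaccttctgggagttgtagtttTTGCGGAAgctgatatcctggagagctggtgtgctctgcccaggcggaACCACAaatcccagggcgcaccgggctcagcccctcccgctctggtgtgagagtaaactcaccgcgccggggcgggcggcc
Mitf last window, chr6:97991533-97991782, plus strand: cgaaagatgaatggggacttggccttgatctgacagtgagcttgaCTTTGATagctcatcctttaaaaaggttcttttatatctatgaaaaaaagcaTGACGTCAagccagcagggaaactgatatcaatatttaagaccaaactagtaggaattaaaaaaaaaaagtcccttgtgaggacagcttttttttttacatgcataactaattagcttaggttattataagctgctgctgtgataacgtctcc
Cebpa held none of these letters, and Tfec held 1 RUNX match, which 14.0% of the 32851 promoter windows in the table hold. The first Mitf window held 1 C/EBP match (9.56% of all windows) and 1 RUNX match. The last held 1 TCF/LEF match (7.48% of all windows) and, in a single palindrome, both strands of the CRE. The CRE letters on either strand occur in 6.47% of all windows, and windows with the full palindrome were not counted. No STAT match was found in the 4 windows, and 7.02% of all windows hold one. Counts per gene do not tell which Mitf start was in use.

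Of 10 genes with known control by MITF and its relatives, 9 were tested, and Oscar had 3 counts or fewer in every library. In the difference 4 of 9 rose and 2 fell, with a median log2 fold change of 0.05 against -0.01 over all genes. Dcstamp, needed for the fusion of macrophages, rose from 0.899 to 3.83 CPM (2.10, adjusted p = 0.000243), Acp5, the tartrate-resistant acid phosphatase, from 30.2 to 129 CPM (2.09, adjusted p = 2.54e-06) and the collagen-degrading protease Ctsk from 5.98 to 15.5 CPM (1.36, adjusted p = 0.00116). Atp6v0d2, a proton pump subunit, fell from 32.9 to 16.7 CPM (-0.98, adjusted p = 0.00111), and Tnfrsf11a, the receptor RANK, from 70.0 to 43.4 CPM (-0.69, adjusted p = 0.00214). In the remainder 5 rose and 1 fell, with a median of 0.75 against -0.02 over all genes. There Dcstamp (3.67, adjusted p = 5.69e-07), Acp5 (2.09, adjusted p = 2.14e-06) and Ctsk (1.66, adjusted p = 0.000184) rose most, and Tnfrsf11a fell again (-0.51, adjusted p = 0.0126). With IL-4 alone 2 of 9 passed, Dcstamp (3.26, adjusted p = 2.45e-05) and Atp6v0d2 (2.21, adjusted p = 4.11e-06). Between remainder and difference the same pair was higher (1.56 and 2.01). Between remainder and IL-4, Acp5 (1.74), Clcn7 (0.76) and Ctsk (0.93) were higher and Atp6v0d2 (-1.17) and Tnfrsf11a (-0.50) lower. Acp5, Ctsk and Oscar are also osteoclast markers. The 5 osteoclast markers summed to 31.3 to 40.7 CPM in untreated cells, 40.9 to 58.4 CPM with IL-4, 112 to 177 CPM in the difference and 131 to 168 CPM in the remainder, while Calcr and Oscar had 3 counts or fewer in every library. Acp5 alone averaged 129 CPM of the sum in the difference. Of the 3 osteoclast markers tested, 2 rose and 1 fell in the difference, 2 rose in the remainder and 1 rose with IL-4. Between remainder and IL-4, 2 of them were higher and 1 was lower. The marker that fell in the difference, rose with IL-4 and was lower in the remainder than with IL-4 was Ocstamp. It had 3, 7 and 2 counts in untreated cells, 0, 1 and 0 in the difference and 4, 1 and 1 in the remainder. Ocstamp thus met the count filter only through the IL-4 libraries, where it was high, and its calls are no test of a change. The part of osteoclast-like cells in the Tfec and Mitf values was not tested.

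Of the wider MiT family, represented by Tfeb and Tfe3, 0 of 2 passed between IL-4 and untreated cells and between remainder and untreated cells or difference. Tfeb, the regulator of lysosome formation, fell from 96.0 to 76.5 CPM in the difference (log2 fold change -0.33, adjusted p = 0.0367) and was lower in the remainder than with IL-4 (-0.35, adjusted p = 0.0278).

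Bhlhe40 lies on chromosome 6 (mm10, 108660629 to 108666925, plus strand). It had 41.2, 42.6 and 35.3 CPM in untreated cells, 67.6, 51.6 and 46.2 CPM with IL-4, 49.9, 47.2 and 42.9 CPM in the difference, and 115, 94.8 and 103.5 CPM in the remainder. The lowest remainder library was above every other library. The remainder was higher than untreated cells (log2 fold change 1.39, SE 0.13, adjusted p = 2.63e-06), the difference (1.16, SE 0.13, adjusted p = 0.000104) and IL-4 (0.92, SE 0.13, adjusted p = 0.000131). With IL-4 alone all 3 libraries were above the untreated range, but the log2 fold change of 0.47 did not pass (95% interval 0.19 to 0.76, adjusted p = 0.0683). It passed with the mouse as a block (adjusted p = 0.0329), in DESeq2 (adjusted p = 0.0241) and without the IL-4 library of mouse 3 (0.56, adjusted p = 0.0445). The difference gave 0.23 (95% interval -0.05 to 0.51, adjusted p = 0.223). A gene on the other strand, 0610040F04Rik, covers 2.51% of its exon bases and had 3 counts or fewer in every library.

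Bhlhe41, the closest relative of Bhlhe40, fell in all 3 comparisons with untreated cells. Its mean level was 106 CPM in untreated cells, 81.2 CPM with IL-4, 74.6 CPM in the difference and 62.1 CPM in the remainder. The log2 fold changes against untreated cells were -0.39 (adjusted p = 0.04998), -0.51 (adjusted p = 0.00197) and -0.78 (adjusted p = 5.55e-05), and -0.39 between remainder and IL-4 (adjusted p = 0.0137). Remainder and difference did not pass against each other (-0.26).

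**Figure D3:**
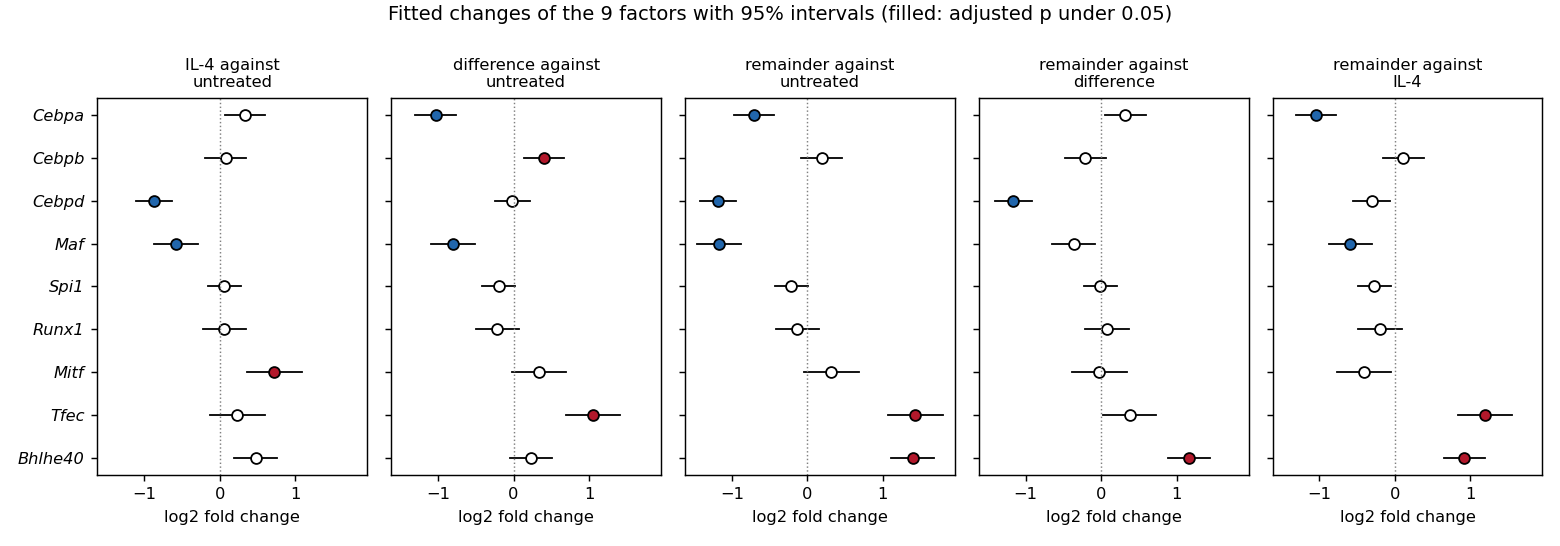
Log2 fold changes of the 9 factors with 95% intervals are plotted for 5 comparisons, on 1 shared linear axis, with filled points for an adjusted p under 0.05 (red higher, blue lower). Cebpa is at -1.03 and -0.71 and Tfec at 1.06 and 1.43 in the difference and remainder against untreated cells, and between remainder and difference the filled points are Cebpd (-1.16) and Bhlhe40 (1.16).

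Whether IL-4 acted differently in the presence of Wnt3a was tested as an interaction, under both ways of assigning the sets. If the difference is taken as Wnt3a alone, the IL-4 effect with Wnt3a is the remainder against the difference, and edgeR called 0 of the 9 factors (0.105% of all genes). With the columns as labelled it called 1, Cebpd (0.70, adjusted p = 0.00440). At an unadjusted p under 0.05 there were 2, Bhlhe40 (interaction 0.69 on the log2 scale, adjusted p = 0.1596) and Mitf (-0.75, adjusted p = 0.230), and DESeq2 called 1, Bhlhe40 (adjusted p = 0.0435). The intervals of the other 7 all held 0, from Cebpb at -0.29 (-0.67 to 0.09) and Cebpd at -0.29 (-0.63 to 0.05) to Maf at 0.21 (-0.19 to 0.62).

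If the remainder is taken as Wnt3a alone, 4 of the 9 factors were called (7.33% of all genes). The interaction was 2.04 for Cebpd (SE 0.16, adjusted p = 1.55e-06), 0.95 for Maf (SE 0.19, adjusted p = 0.00611), -0.66 for Cebpa (SE 0.17, adjusted p = 0.0342) and -1.64 for Bhlhe40 (SE 0.18, adjusted p = 5.03e-05). The Cebpa call was lost with the mouse as a block (-0.66, adjusted p = 0.0581). It was also lost without mouse 1 or mouse 3 and in 8 of the 12 fits that left out 1 library, which were those without mouse 1 or mouse 3 of any set but IL-4 and those without IL-4 of mouse 1 or mouse 2 (interactions of -0.35 to -0.67, adjusted p from 0.0615 to 0.382). The Maf call was lost without mouse 3 (1.03, adjusted p = 0.0766). Tfec (-0.61) and Mitf (-0.70) did not pass (adjusted p = 0.158 and 0.104), although Tfec did without mouse 1 (-0.91, adjusted p = 0.0333) and without the untreated library of mouse 1 (-0.83, adjusted p = 0.0328), and Mitf did without the remainder of mouse 1 (-0.84, adjusted p = 0.0439). The same measurements thus give a different set of factors under each assignment, while the changes of Cebpa, Maf and Tfec against untreated cells do not depend on it.

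Among the target lists, all chosen with earlier results of these data known, genes that C/EBP-β and C/EBP-δ are known to drive rose by the largest amounts. Of 10 listed, 8 were tested, and Il6 and Csf3 had 3 counts or fewer in every library. In the difference 6 of 8 rose, with a median log2 fold change of 3.02 against -0.01 over all genes. The acute-phase gene Saa3 rose from 10.7 to 3356 CPM (8.30, adjusted p = 4.35e-09), haptoglobin (Hp) from 3.03 to 117 CPM (5.26, adjusted p = 3.44e-09) and Il1b from 21.1 to 208 CPM (3.30, adjusted p = 3.03e-06). In the remainder all 8 rose, with a median of 2.496 against -0.02. Saa3 reached 1109 CPM (6.70, adjusted p = 9.96e-09) and Hp 48.6 CPM (3.997, adjusted p = 1.93e-08). Arg1, which had 0, 2 and 1 counts in untreated cells, had 402, 97 and 114 counts in the remainder, at least 66.4-fold higher against a floor of 3 counts per library, and at least 34.9-fold higher without mouse 1. Arg1 counts in the difference were 0, 1 and 0. Between remainder and difference Saa3 (-1.60), Lcn2 (-1.57), Il1b (-1.56) and Hp (-1.27) were lower and Arg1 higher, and between remainder and IL-4 6 of 8 were higher, led by Saa3 (6.94), Hp (4.32) and Arg1, and Chil3 was lower (-0.51). With IL-4 alone 2 of 8 rose, Chil3 from 14.3 to 28.0 CPM (0.96, adjusted p = 0.000379) and Arg1 to 26, 26 and 19 counts, at least 7.93-fold. Of Cebpa, Cebpb and Cebpd, the largest log2 fold change against untreated cells was that of Cebpd in the remainder, at -1.18.

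Of 11 listed targets of PU.1 and C/EBP-α, all were tested and 1 passed with IL-4 alone, Cd14 (log2 fold change -0.51, adjusted p = 0.00167). In the difference 4 rose and 0 fell, with a median log2 fold change of 0.22 against -0.01 over all genes. Fcgr1, the high-affinity IgG receptor, rose from 129.6 to 273 CPM (1.07, adjusted p = 3.45e-06), the integrin gene Itgam from 127 to 265 CPM (1.06, adjusted p = 1.38e-06) and Cybb, the NADPH oxidase subunit, from 1547 to 3102 CPM (1.00, adjusted p = 0.000162). In the remainder Itgam (0.90, adjusted p = 5.89e-06), Fcgr1 (0.60, adjusted p = 0.000491) and Cybb (0.54, adjusted p = 0.0132) rose with Csf3r (0.39, adjusted p = 0.0173), and the median was 0.21 against -0.02 over all genes. Cd14 (-0.57) and Fcgr1 (-0.47) were lower in the remainder than in the difference, and 5 of 11 were higher in the remainder than with IL-4, led by Fcgr1 (0.98), Itgam (0.90) and Cd14 (0.72). Csf1r, the receptor for the growth factor of the cultures, passed in none of the 5 comparisons. Itgam, Fcgr1 and Cd14 are also macrophage markers, of which 4 of 8 rose in the difference, 2 of 8 in the remainder and 1 of 8 fell with IL-4.

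**Figure D4:**
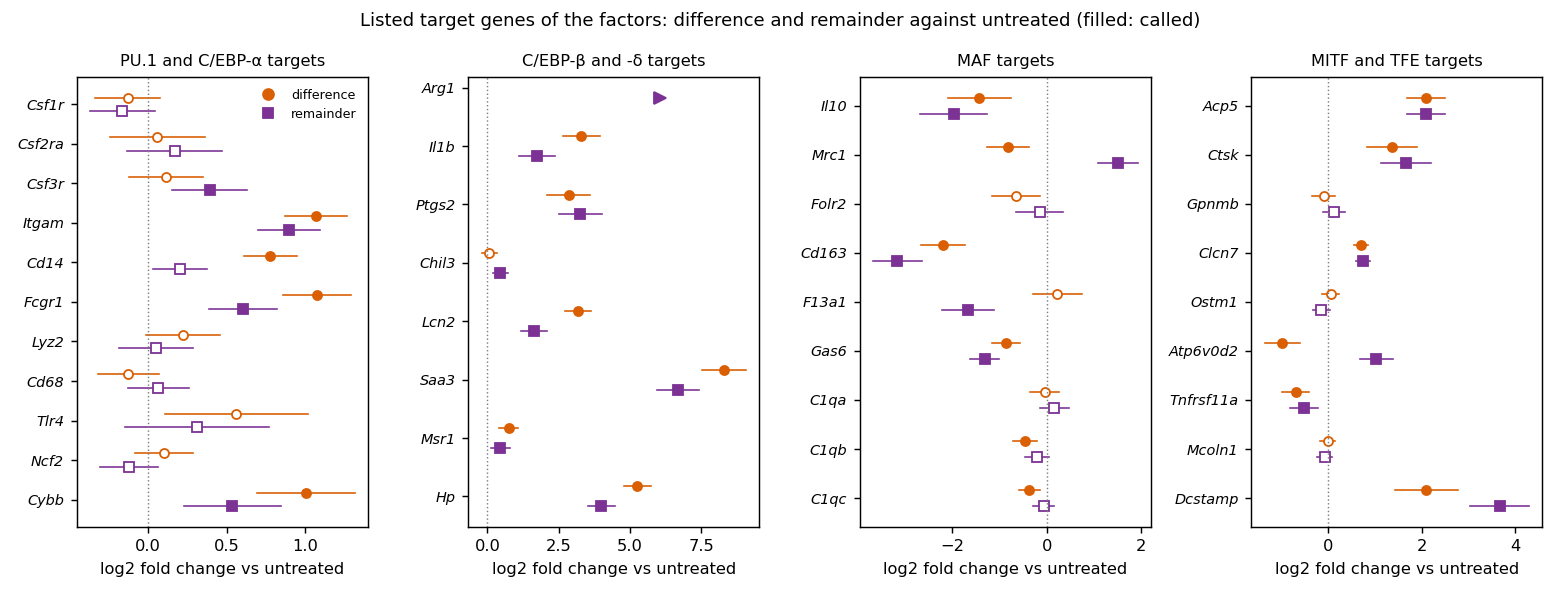
Log2 fold changes of the listed target genes against untreated cells are plotted on linear axes with 95% intervals for the difference (orange circles) and the remainder (purple squares), filled where the adjusted p was under 0.05, and the triangle is the lower bound for Arg1. Saa3 lies at 8.30 and 6.70, Cd163 at -2.21 and -3.17, and Mrc1 and Atp6v0d2 lie on opposite sides of 0 in the difference and the remainder.

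Neutrophil precursors also use C/EBP factors, so neutrophil genes were set beside these values. The 8 neutrophil markers summed to 48.9 to 61.2 CPM in untreated cells, 64.7 to 75.2 CPM with IL-4, 35.7 to 56.5 CPM in the difference and 32.0 to 36.3 CPM in the remainder. Of 6 tested, 0 passed with IL-4, 1 fell in the difference (Ngp, -0.55, adjusted p = 0.0298) and 4 fell in the remainder, led by Ltf (-1.02, adjusted p = 0.000753), Ngp (-0.90, adjusted p = 0.00133) and Camp (-0.88, adjusted p = 0.0387). Between remainder and IL-4 5 of 6 were lower, and between remainder and difference 0. Ly6g, the defining surface marker, had 3 counts or fewer in every library. Cebpa and the sum of these markers were both highest with IL-4, where neither Cebpa nor any tested marker passed against untreated cells. Cebpa was lowest in the difference (mean 91.5 CPM, against 114 CPM in the remainder), while the marker sum was lowest in the remainder. The part of neutrophil-type cells in the Cebpa values was not tested.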

How the data were processed

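BMDMs of 3 mice under 4 treatments gave 12 columns of raw counts per gene, which the authors deposited without normalization. Per the labels, reads were trimmed with Trimmomatic 0.36, aligned to mm10 with STAR 2.6.0 and counted with HTSeq 0.11.1, and the strand setting of the counting is not given in the sources used here. The difference and the remainder of each mouse were solved for from the Wnt3a and Wnt3a+IL-4 columns, which share reads. Both are whole counts, which follows from subtracting whole counts and is no check of the solution. Of 48526 gene identifiers, 48058 (99.0%) were paired with a symbol. There were 0 rows that name no gene.

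Genes reaching 10 counts in 3 or more of the 12 libraries (12421 genes) were fitted together in edgeR 4.0.16 (R 4.3.3) with TMM scaling, the quasi-likelihood test, no term for the mouse and Benjamini-Hochberg adjustment over all genes tested. Standard errors are the log2 fold change over the root of F. The floor is 3 counts per library and covers counting error only. Self-tests on simulated counts were run first. Gene positions, exon lengths and overlaps are from the GENCODE annotation of mm10, and start-site windows from RefSeq. The same mouse gave 1 library to each set, which pairs them. Deviations from the set means of same-mouse libraries correlated between -0.42 and 0.45 over 18 pairs, with 6 over 0.1. Alternatives were DESeq2 1.42.0, DESeq2's size factors, total counts, all genes with at least 1 count, only the groups compared, the columns as labelled, an adjusted p under 0.01, a replicate block for the mouse, and fits that left out a mouse or a library. P-values rest on the spread among the 3 libraries of a set, each from another mouse, pooled over the 4 sets and moderated across genes. With 1 culture per mouse and set, the spread between mice cannot be told from that between cultures.

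The members and all lists (C/EBP, MAF, ETS, RUNX, MiT and BHLHE relatives, targets, markers of 7 cell types and overlapping genes) were chosen with earlier results of these data known. Named genes are the 9 factors and, of each list, the called genes with up to the 3 highest and 3 lowest log2 fold changes, and any other called gene was named after its values were seen. Of these lists, 2 genes are not reported here.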

Additional observations from a re-analysis of the deposited data

Results flagged for a closer look

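For 4 factors the IL-4 effect differed with and without Wnt3a by edgeR's interaction test, if the remainder is taken as Wnt3a alone. The interaction on the log2 scale was 2.04 for Cebpd, 0.95 for Maf, -0.66 for Cebpa and -1.64 for Bhlhe40. For Cebpd the IL-4 effect without Wnt3a was -0.87, lower in 3 of 3 mice. With Wnt3a, under that assignment, Cebpd was higher with IL-4 in 3 of 3 mice. Under the reverse assignment the interactions of the same genes were -0.29, 0.21, -0.01 and 0.69, and none passed the test. Which assignment holds was not tested.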

How the results depend on the processing

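With the columns as labelled in place of the difference and remainder, 708 genes (5.3%) and 5 factors passed between IL-4 and untreated cells, 4063 genes (30.4%) and 7 factors between the Wnt3a column and untreated cells, 3211 genes (24%) and 7 factors between the Wnt3a+IL-4 column and IL-4, and 0 genes and 0 factors between the 2 Wnt3a columns in edgeR (20 genes and 1 factor at an unadjusted p under 0.05). The interaction then called 142 genes (1.06%) and 1 factor, or 311 genes (2.33%) and 1 factor with the columns exchanged. These shares are of 13368 genes tested. Sharing reads makes these columns alike by construction. With all 23413 genes of at least 1 count fitted, in place of 12421, 812 genes and 5 factors passed with IL-4. There, 1454 genes and 5 factors passed between remainder and difference, and 575 with 2 factors and 1505 genes in the interactions (difference or remainder as Wnt3a). Factors gained there were Cebpa and Bhlhe40 with IL-4, Mitf in both sets against untreated cells and between remainder and IL-4, Cebpa, Maf and Tfec between remainder and difference, Mitf and Bhlhe40 in the first interaction and Mitf and Tfec in the second. At an adjusted p under 0.01 the counts of genes were 227, 1687, 1960, 279 and 1575 in the 5 comparisons and 0 and 472 in the interactions, and 1 factor passed with IL-4. With only the groups compared, 422 genes passed between remainder and difference. DESeq2, fitted to the same 12421 genes as the main edgeR fit, called 165 genes and 1 factor in the interaction with the difference as Wnt3a, against 13 and 0. The cause of these shifts was not tested.

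Leaving out 1 mouse or library moved the genes called to between 77 (without mouse 3) and 532 with IL-4, 1220 and 3188 for the difference, 1375 and 3807 for the remainder, 97 and 1188 between remainder and difference, 1043 and 3052 between remainder and IL-4, and 0 and 43 or 265 and 1459 in the interactions. All lowest counts were without mouse 3 (in the first interaction, 0 genes by edgeR, with 834 at an unadjusted p under 0.05), and the highest without mouse 2 or its remainder. In the order of these gene counts, the factors called, out of 9, ran from 1 to 3, 3 to 4, 5 to 6, 2 to 4, 3 to 5, 0 to 0 and 2 to 4.

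Total counts as the scaling moved the split of higher and lower genes to 247 and 212 with IL-4 (from 287 and 135), 1131 and 2238 in the difference (from 1462 and 1422), 1293 and 2342 in the remainder (from 1687 and 1450), 1209 and 1584 between remainder and IL-4 (from 1320 and 1201), and 457 and 482 in the interaction with the remainder as Wnt3a (from 361 and 549).

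Over the fits that left out a mouse or library, with IL-4 Cebpb ran from -0.014 to 0.13, Spi1 from -0.061 to 0.16 and Runx1 from -0.067 to 0.19. Cebpd ran from -0.082 to 0.023 in the difference and Mitf from -0.071 to 0.57 in the remainder. Between remainder and difference Mitf ran from -0.25 to 0.18, Cebpb from -0.40 to 0.035, Spi1 from -0.14 to 0.11 and Runx1 from -0.036 to 0.27, and between remainder and IL-4 Cebpb ran from -0.013 to 0.24. In the interaction with the difference as Wnt3a Runx1 ran from -0.094 to 0.14, Tfec from -0.056 to 0.32, Cebpa from -0.11 to 0.097 and Spi1 from -0.16 to 0.017, and with the remainder as Wnt3a Cebpb ran from -0.16 to 0.42, Spi1 from -0.27 to 0.20 and Runx1 from -0.45 to 0.029. None of these factors had passed in the comparison named. As labelled columns, Cebpd turned to 0.38 against IL-4 and passed (adjusted p = 0.00206), and in the first interaction it turned to 0.70 and passed (adjusted p = 0.00440), with Runx1 turning to -0.046, Tfec to -0.16 and Bhlhe40 to -0.27, and in the second Cebpb to -0.035. With total counts Cebpa turned to 0.022 in the first and Spi1 to 0.021 in the second interaction.

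The mouse as replicate block lost the IL-4 call of Mitf (0.72, adjusted p = 0.0604) and the Cebpa interaction (-0.66, adjusted p = 0.0581), gained the IL-4 call of Bhlhe40 (0.46, adjusted p = 0.0329), and changed no other call of a factor. It called 391 genes with IL-4, 2659 between difference and untreated cells and 2858 between remainder and untreated cells.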

Other observations

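Of 6 mast cell and basophil markers, only Kit, the stem cell factor receptor, was tested, and it fell from 4.08 CPM in untreated cells to 2.08 CPM with IL-4 (log2 fold change -0.97, adjusted p = 0.0227), 2.56 CPM in the difference (-0.67, adjusted p = 0.0338) and 1.78 CPM in the remainder (-1.20, adjusted p = 0.00102). Of 5 dendritic cell markers only Zbtb46 was tested, and it rose in the remainder from 0.372 to 1.13 CPM (1.56, adjusted p = 0.0113). The lymphocyte markers Cd3e and Nkg7 did not pass the count filter. Of 5 stromal markers, with a summed level of 5.82 to 29.8 CPM over all libraries, 4 were tested. Cxcl12 had 11, 19 and 13 counts in untreated cells and 3, 2 and 1 counts in the difference, at least 4.02-fold lower, and 2, 2 and 3 counts in the remainder, at least 4.45-fold lower. With IL-4 it had 9, 3 and 9 counts. Cxcl12 met the count filter only through the untreated libraries, where it was high, so its fall is partly set by the filter. Pdgfrb rose in the difference (0.99, adjusted p = 0.0356).

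Atp6v0d2, an IL-4 responder and listed MITF target, had an edgeR interaction of -4.21 (adjusted p = 9.36e-08) if the remainder is taken as Wnt3a alone, and Dcstamp one of -4.82 (adjusted p = 2.06e-06). In the MAF list the same test gave -4.47 for Mrc1 (adjusted p = 2.56e-07), 2.63 for F13a1 (adjusted p = 0.000259) and 0.90 for Gas6 (adjusted p = 0.0114).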
